A study of Mus musculus with 143 samples.

Results

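The mitochondrially encoded transcripts are the RNAs copied from the small circular genome inside mitochondria. They were taken as the rows of the deposited FPKM table whose Ensembl identifier maps to a mouse symbol that starts with mt-. FPKM are fragments per kilobase of transcript scaled by a library's mapped fragments, so a level is per length and a library's values are relative to each other. There were 37 such genes among 54232 identifiers, namely 13 protein-coding, 2 ribosomal RNA (rRNA) and 22 transfer RNA (tRNA) genes.

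The study profiled subcutaneous tumours grown from 11 mouse lines in the right lower flank, to ask how gene expression relates to response to blocking the inhibitory T-cell receptor PD-1. Each model gave 5 tumours from mice injected with muDX400, a mouse antibody against PD-1, on days 11 and 15 after implantation and excised on day 19, a time the labels call 8 days. A second set of 5 tumours came from mice given a mouse IgG1 isotype control antibody on the same days, and 3 baseline tumours came from mice with no treatment. By the labels' grading of response to anti-PD-1, MC38, CM3 and MBT2 are High, RENCA, MB49, EMT6 and CT26 are Partial, and TC1, LL2, 4T1 and B16F10 are Resistant. B16F10 is a melanoma line, 4T1 and EMT6 are mammary carcinomas, CT26 and MC38 colon carcinomas, MB49 and MBT2 bladder carcinomas, LL2 and TC1 lung lines and RENCA a renal carcinoma. The labels give no host strain, age or sex, and each library is bulk RNA of a whole tumour, so fewer cells of a type and less RNA per cell cannot be told apart.

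Estimated depth, in units of 1e6 fragments, was 35.1 to 48.4 in the 9 baseline tumours of RENCA, TC1 and B16F10 and 11.1 to 24.8 elsewhere. Every library's most similar library was of its own model, and replicate libraries correlated at 0.832 to 0.997. Sample numbers fall into 4 runs. Both 8-day arms of a model share a run, but only in B16F10 and RENCA does the baseline share it too. In the other 9 models time, treatment and run of sample numbers therefore cannot be told apart between the isotype and baseline arms. Isotype replicates 2 and 3 of CM3 stood apart, with FPKM totals of 784467 and 885333 against 668845 at most in the other libraries, and CM3 results are given with and without them where it matters. Summed melanocyte markers were 8180 to 10494 FPKM in B16F10 isotype tumours, 5428.5 to 7439 FPKM in CM3 isotype tumours and 12.6 FPKM at most in isotype tumours of the other 9 models.

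Mitochondrial DNA encodes core subunits of the respiratory chain and of ATP synthase, with the rRNAs and tRNAs that translate them, and all other subunits come from nuclear genes. Both strands are transcribed as long precursors, which are cut mainly at the tRNAs that lie between the longer genes. Most genes read in the direction of the heavy-strand transcript, while mt-Nd6 and some tRNAs lie on the opposite strand, and mt-Atp8 with mt-Atp6, and mt-Nd4l with mt-Nd4, share a single messenger RNA each.

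The genome also matters for what can be measured, because a run of mitochondrial sequence also lies on nuclear chromosome 1. Of the 13 protein-coding genes, 7 had a nuclear copy with at least 99% identity over at least 30% of their length in the GENCODE M21 annotation of GRCm38. These were Gm28661 for mt-Co2, Gm10925 for mt-Atp6, Gm28437 for mt-Co3, Gm28438 for mt-Nd3, Gm10222 for mt-Nd4l, Gm28439 for 876 bases of mt-Nd4 and Gm29216 for 483 bases of mt-Co1. In all, 5 of these alignments held 0 mismatches, and the other alignments held 1 each. The levels of copied genes are therefore uncertain, since a fragment that matches both places cannot be assigned by its sequence, and 5 protein-coding genes without such a copy (mt-Nd1, mt-Nd2, mt-Nd5, mt-Nd6 and mt-Cytb) served as a check. mt-Atp8 was not among them, because the 43 bases it shares with mt-Atp6 are identical to the start of Gm10925, over 21.1% of the gene. The first sequences below show how little separates a mitochondrial gene from its copy, with the differing base in capitals. They lie at chrM:9459-9491 on the plus strand for mt-Nd3, at chr1:24613087-24613119 on the minus strand for Gm28438, at chrM:6390-6423 on the plus strand for mt-Co1 and at chr1:24616155-24616188 on the minus strand for Gm29216. Counted from 1 at the 5′ end of the mitochondrial gene, the substitutions are T3C in mt-Nd3 and A1066T in mt-Co1.
mt-Nd3: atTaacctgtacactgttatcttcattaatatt
Gm28438: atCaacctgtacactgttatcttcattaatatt
mt-Co1: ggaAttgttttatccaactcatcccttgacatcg
Gm29216: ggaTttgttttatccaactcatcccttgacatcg

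The next sequences are of short genes on which later results turn, each whole, with capitals for the bases shared with a neighbouring gene. mt-Atp8 (chrM:7766-7969, plus strand, 204 bases) shares 43 bases with mt-Atp6, and mt-Nd4l (chrM:9877-10173, plus strand, 297 bases) shares 7 bases with mt-Nd4. mt-Ts1, a serine tRNA on the minus strand (chrM:6870-6938, 69 bases), overlaps the end of mt-Co1 by 3 bases on the opposite strand.
mt-Atp8: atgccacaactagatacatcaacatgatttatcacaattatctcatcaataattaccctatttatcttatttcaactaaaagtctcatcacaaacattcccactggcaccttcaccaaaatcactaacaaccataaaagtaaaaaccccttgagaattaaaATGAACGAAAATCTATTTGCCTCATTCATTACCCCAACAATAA
mt-Nd4l: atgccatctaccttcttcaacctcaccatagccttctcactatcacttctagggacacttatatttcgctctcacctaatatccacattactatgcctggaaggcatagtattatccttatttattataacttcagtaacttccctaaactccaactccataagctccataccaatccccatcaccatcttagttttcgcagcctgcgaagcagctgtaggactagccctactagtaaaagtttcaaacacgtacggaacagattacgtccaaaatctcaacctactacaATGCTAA
mt-Ts1: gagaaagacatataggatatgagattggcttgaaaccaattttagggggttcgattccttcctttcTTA

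Mitochondrially encoded transcripts took 1.64% to 14.1% of the FPKM of a library, with a median of 4.09%. With the 7 nuclear copies added, the range was 2.31% to 17.6% and the median 5.67%. B16F10 had the highest mean share in every arm, 10.3 ± 3.05% in muDX400 tumours (SD, n = 5), 5.79 ± 4.197% in isotype tumours (n = 5) and 10.3 ± 1.15% in baseline tumours (n = 3). CM3 and LL2 followed in each arm, with means of 6.59% and 5.65% under muDX400, 5.63% and 5.45% under isotype, and 7.05% and 5.73% at baseline. The B16F10 isotype tumours ran from 1.79% to 12.1%, beside 3.85% to 6.72% in CM3 and 4.87% to 6.08% in LL2. On the log2 scale used for the tests B16F10 did not have the highest isotype mean. There the Resistant models, B16F10 among them, reached 2.44 at most and the High models 2.46. The lowest means were those of RENCA under muDX400 (2.42 ± 0.35%) and isotype (2.86 ± 0.89%), and of TC1 at baseline (2.67 ± 0.09%).

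Models that stood next to each other in this order overlapped in the muDX400 and isotype arms. At baseline all B16F10 libraries lay above all CM3 libraries, those of CM3 above those of LL2, those of 4T1 above those of MB49, and those of EMT6 above those of TC1. The isotype means of the remaining models were 4.76% in CT26, 4.47% in MBT2, 4.16% in 4T1, 4.03% in MB49, 3.65% in TC1, 3.52% in MC38 and 3.03% in EMT6.

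**Figure D1:**
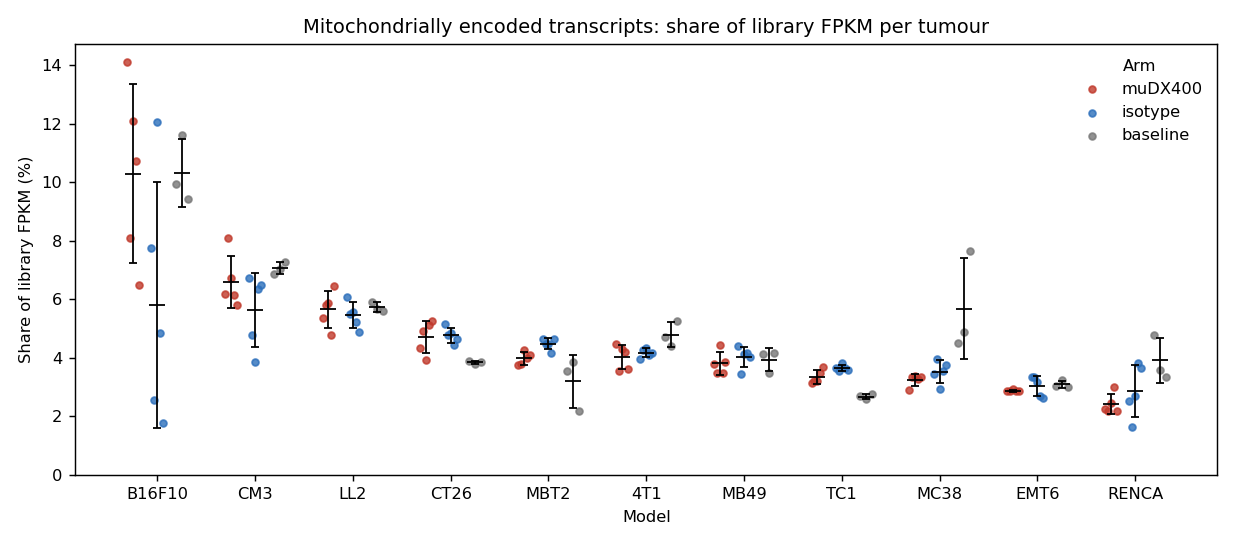
Share of library FPKM taken by the 37 mitochondrially encoded genes (%), by model and arm (muDX400, isotype, baseline), with 1 point per tumour and the mean ± SD. Isotype tumours of B16F10 spread from 1.79% to 12.1%, wider than those of any other model drawn.

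Messenger RNAs made up nearly all of that share. mt-Co1, the catalytic subunit of cytochrome c oxidase (complex IV), had the highest level of the 13 messenger RNAs in 55 of 55 muDX400, 53 of 55 isotype and 33 of 33 baseline libraries. Its level was 6083.6 FPKM in the median library and reached 31868 FPKM in B16F10 muDX400 replicate 1. mt-Cytb, the mitochondrially encoded subunit of complex III, and mt-Co2, another complex IV core subunit, came next, with median levels of 2193 and 2113 FPKM. Of the complex I subunits, mt-Nd1 (1851 FPKM), mt-Nd4 (1599.9 FPKM) and mt-Nd2 (1203 FPKM) stood well above mt-Nd5 (548 FPKM), mt-Nd3 (433 FPKM), mt-Nd6 (420.3 FPKM) and mt-Nd4l (281 FPKM) in the median library. The ATP synthase subunit mt-Atp6 had a median of 1759 FPKM.

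All 13 messenger RNAs and both rRNAs had an FPKM of at least 1 in every library, so no member among these 15 was lost to a filter on low values. The library kit depletes ribosomal RNA, so the rRNA levels are of what depletion left. mt-Rnr1, of the small ribosomal subunit, had a median of 126.7 FPKM and mt-Rnr2, of the large subunit, a median of 67.4 FPKM, and together they made 0.354% to 5.88% of the mitochondrial FPKM.

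**Figure D2:**
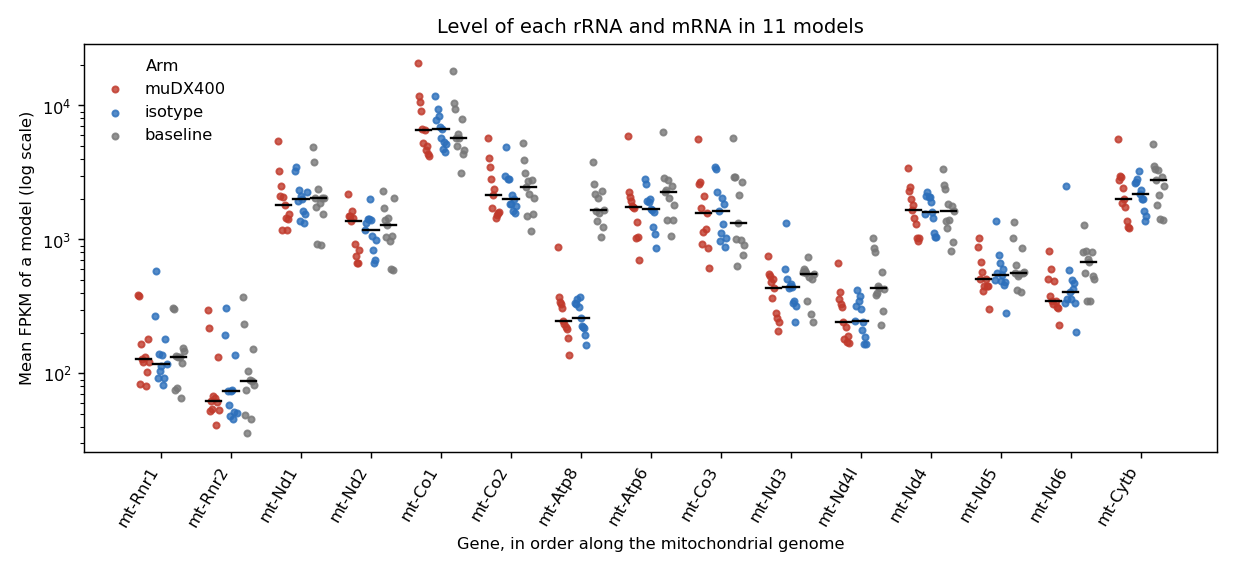
Mean FPKM of each rRNA and messenger RNA in each model (log scale), by arm (muDX400, isotype, baseline), with 1 point per model and a bar at the median of the 11 model means; genes run in their order on the mitochondrial genome. mt-Co1 is the highest gene, and mt-Atp8 is the gene whose baseline points all lie above its isotype points.

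The tRNA genes were almost absent from these libraries. In all, 10 of 22 were above 0 in any library, and 4 reached an FPKM of 1 anywhere. All 8 tRNAs encoded opposite to the heavy-strand messages were seen above 0, as against 2 of 14 in the sense of those messages. The highest values were 14.7 FPKM for mt-Ts1, 13.7 FPKM for mt-Te (glutamic acid) and 7.61 FPKM for mt-Tq (glutamine), all in CM3 isotype replicate 3. Outside CM3 isotype replicates 2 and 3 the highest tRNA value was 1.96 FPKM. tRNAs were left out of the tests.

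muDX400 tumours were compared with isotype tumours to ask whether PD-1 blockade goes with a change in these transcripts. The share did not pass the test in any of the 11 models (exact 2-sided permutation of 5 against 5 libraries, Benjamini-Hochberg over 11 models). The smallest adjusted p was 0.175, for MBT2 (exact permutation p = 0.0159). Its share was 3.74%, 3.80%, 4.27%, 3.98% and 4.09% in muDX400 tumours and 4.64%, 4.47%, 4.45%, 4.17% and 4.62% in isotype tumours. The MBT2 arms overlapped by a single pair of libraries, and the difference on the log2 scale was -0.17. TC1 was next, with a log2 difference of -0.13 (exact permutation p = 0.0476, adjusted p = 0.262). The smallest p that 5 against 5 libraries can give is 0.00794.

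B16F10 had the largest difference in the share and did not pass either. Its share was 14.1%, 8.07%, 12.1%, 10.7% and 6.48% in muDX400 tumours and 7.73%, 2.56%, 12.1%, 4.83% and 1.79% in isotype tumours. The muDX400 values lay inside or above the isotype range, and the log2 difference was 1.11 (exact permutation p = 0.0873, adjusted p = 0.32). Baseline B16F10 tumours gave 9.92%, 11.6% and 9.41%, so 4 of the 5 isotype tumours lay below all 3 of them. Summed macrophage markers ran from 30.8 to 406 FPKM in muDX400 and from 43.0 to 532 FPKM in isotype tumours of B16F10, and melanocyte markers from 8574 to 10020 and from 8180 to 10494 FPKM. Erythroid markers ran from 383 to 18167 FPKM in muDX400 and from 999 to 6777 FPKM in isotype tumours of B16F10. Fibroblast markers ran from 68.5 to 233 FPKM in muDX400 and from 47.9 to 545 FPKM in isotype tumours. The part of these cells in the spread was not tested.

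Gene by gene, 0 of 15 passed in 10 of the models (limma on log2(FPKM + 1), adjusted p under 0.05 over all genes tested, 5 against 5 libraries). In 7 of these models no gene of any kind was called, that is 0.0% in 4T1, B16F10, CM3, EMT6, LL2, MB49 and MBT2. In CT26 0.339% of all genes tested were called, in RENCA 2.57% and in TC1 0.0802%. At an unadjusted p under 0.05 there were 10 of 15 in MBT2, where 28.7% of all genes tested lay under it, 9 in B16F10 (3.07% of all genes), 5 in TC1 (6.55%) and 2 in 4T1 (4.68%). There were 2 in CM3 (26.6%), 1 in CT26 (19.2%), 1 in RENCA (14.4%) and 0 in EMT6 (4.24%), LL2 (16.6%) and MB49 (10%). All 15 differences were positive in B16F10, from 0.52 for mt-Nd3 to 1.68 for mt-Nd4l, and all 15 were negative in TC1.

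mt-Co1 shows the B16F10 tumours singly. Its level was 31868, 16379, 24401, 21405 and 10589 FPKM in muDX400 tumours and 13593, 2792, 31211, 7525 and 3310 FPKM in isotype tumours. The arms overlapped because isotype replicate 3 reached the level of the highest muDX400 tumour, and the log2 difference was 1.32. mt-Atp8, the small ATP synthase subunit, was the gene whose B16F10 arms did not overlap, at 790, 852, 724, 1140 and 899 FPKM in muDX400 tumours and 705, 216, 292, 377 and 92.1 FPKM in isotype tumours. Its log2 difference of 1.66 did not pass either, in a model where 0.0% of genes did.

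MC38 was the model with calls, with 2 of 15 lower and 0 higher, in a model where 27.3% of all genes tested were called. mt-Co2 was 1278, 1511, 1615, 1558 and 1658 FPKM in MC38 muDX400 tumours and 2026, 1959, 2382, 1821 and 1861 FPKM in isotype tumours. The arms did not overlap, and the log2 difference was -0.40 (SE 0.12, limma adjusted p = 0.0327). mt-Nd6, the complex I subunit on the opposite strand, was 232, 359, 337, 342 and 286 FPKM in muDX400 tumours and 561, 380, 617, 334 and 468 FPKM in isotype tumours. The mt-Nd6 arms overlapped at isotype replicate 4, and the log2 difference was -0.58 (SE 0.18, limma adjusted p = 0.0359).

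The MC38 calls are fragile: 0 of 15 passed without a filter on low values, after median-ratio scaling, or with a spread shared over all 110 libraries at 8 days, and leaving out a library gave 0 to 3. Beside them, summed T-cell markers were 40.4 to 163 FPKM in muDX400 and 9.49 to 20.7 FPKM in isotype tumours of MC38, and macrophage markers were 1143 to 2352 FPKM in muDX400 and 606 to 960 FPKM in isotype tumours. Their part in the difference was not tested.

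Over all 11 models together, 0 of 15 passed for the mean muDX400 effect (limma, 110 libraries, 23.1% of genes called, 0 of 15 at an unadjusted p under 0.05). Without B16F10, 2 of 15 were called, both lower, mt-Nd3 (-0.22, limma adjusted p = 0.0207) and mt-Nd5 (-0.16, adjusted p = 0.0421). For both genes CM3 had the lowest difference of any model (-0.93 for mt-Nd3 and -0.36 for mt-Nd5). In isotype replicates 2 and 3 of CM3, kept in this fit, mt-Nd3 was 1890 and 2974 FPKM and mt-Nd5 1889 and 1960 FPKM. The other CM3 isotype tumours held 515 to 655 and 967 to 1085 FPKM. A fit without B16F10 and these replicates was not run. The mean log2 difference of the share over models was 0.05 (exact 2-sided sign-flip permutation over 11 models, p = 0.897). By the interaction F test the effect differed between models for 13 of 15 genes, where 32.4% of all genes were called. Without B16F10 the count was 2 (5640 of 16020 genes of all kinds called) and without CM3 it was 10 (3572 of 15876). Without any other single model it was 11 to 14. The test takes 1 spread per gene over all models, so a wider spread in a single model is averaged with the others. The share of isotype tumours had an SD of 4.197% in B16F10 and 0.11% to 1.26% in the other models. Fitted with its own spread, B16F10 had 0 of 15 called.

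Ratios within the mitochondrial RNA do not depend on how a library is scaled. The ratio of rRNA to messenger RNA passed in 0 of 11 models between muDX400 and isotype, with the smallest adjusted p in MBT2 (log2 difference 0.43, exact permutation p = 0.00794, adjusted p = 0.0873). CM3 passed when isotype replicate 5 was left out, at -0.63 (exact permutation, adjusted p = 0.0437), which kept the isotype libraries of highest FPKM total. Without those libraries the CM3 difference was -0.19 (exact permutation, adjusted p = 0.262), against -0.50 with all libraries. The ratio of mt-Nd6 to the 12 heavy-strand messages passed in 0 of 11 models as well, with the smallest unadjusted p in CM3 (log2 difference -1.15, exact permutation p = 0.0397, adjusted p = 0.306).

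No trend of the share over the response classes passed its test. With High scored 2, Partial 1 and Resistant 0, the slope of the log2 share was -0.14 per class for the muDX400 effects (exact permutation of classes over 11 models, p = 0.444), -0.02 for isotype means (exact permutation p = 0.907) and -0.07 for baseline means (exact permutation p = 0.782). In isotype tumours the models of the High class averaged 3.52% to 5.63%, those of the Partial class 2.86% to 4.76% and those of the Resistant class 3.65% to 5.79%.

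**Figure D3:**
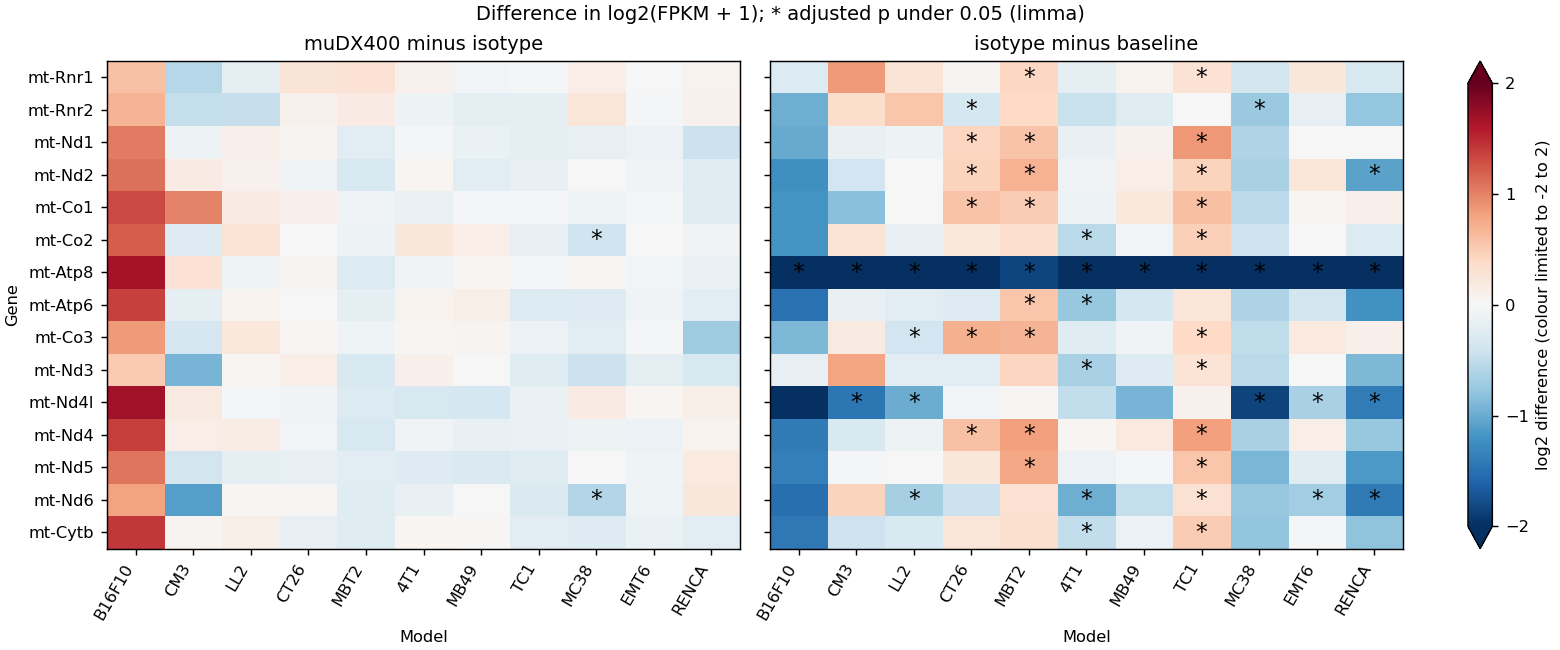
Log2 difference of each gene in each model, muDX400 minus isotype (left) and isotype minus baseline (right), on the log2(FPKM + 1) scale; an asterisk marks an adjusted p under 0.05 (limma) and colours stop at 2 in either direction. The left panel holds 2 asterisks, both in MC38, and the mt-Atp8 row of the right panel is marked in all 11 models.

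Isotype tumours of day 19 were compared with baseline tumours, a comparison in which growth, antibody and, outside B16F10 and RENCA, run of sample numbers move together. The share passed in 5 of 11 models in both directions (exact 2-sided permutation of 5 against 3 libraries, adjusted p = 0.0393 in each). It was higher in MBT2 by 0.53 on the log2 scale, in TC1 by 0.45 and in CT26 by 0.31, and lower in MC38 (-0.65) and 4T1 (-0.20). Of 9 lists of cell type markers, summed levels separated the arms with no overlap for 1 in MBT2, 5 in TC1, 2 in CT26, 3 in MC38 and 5 in 4T1. Erythroid markers were higher in isotype tumours of MBT2 (272 to 564 against 122 to 239.7 FPKM at baseline), CT26 (179.7 to 1006 against 12.4 to 42.6 FPKM at baseline) and MC38 (35.7 to 722 against 3.23 to 10.2 FPKM at baseline). In 4T1 isotype tumours neutrophil (156 to 358 against 30.7 to 50.2 FPKM at baseline), adipocyte (84.3 to 172 against 10.1 to 22.8 FPKM at baseline) and T-cell markers (11.7 to 29.9 against 5.66 to 6.63 FPKM at baseline) were higher. Neutrophil markers were also higher in MC38 isotype tumours. Skeletal muscle markers were lower in MC38 isotype tumours (2.90 to 4.03 against 4.27 to 165.9 FPKM at baseline). Keratinocyte markers were lower in isotype tumours of CT26 and 4T1, and melanocyte markers in those of 4T1. The TC1 lists, all lower in isotype tumours, are given below. The part of these cells in the share was not tested. TC1 isotype tumours held 3.65%, 3.54%, 3.82%, 3.63% and 3.58%, against 2.68%, 2.57% and 2.76% at baseline, and MC38 isotype tumours held 3.45%, 3.95%, 2.93%, 3.56% and 3.73%, against 4.49%, 4.87% and 7.64% at baseline. In each of the 5 models the arms did not overlap, and each had the smallest p the design allows, 0.0179, so leaving out any library puts the threshold out of reach.

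mt-Atp8, the small ATP synthase subunit, was called in every model and always downward. It was lower in isotype tumours of all 11 models, by 1.84 on the log2 scale in MBT2 to 3.77 in B16F10, and its arms overlapped in no model. It was 195, 239.8, 230.5, 235 and 217 FPKM in TC1 isotype tumours and 1026, 1039 and 1079 FPKM in TC1 baseline tumours (log2 difference -2.23, SE 0.08, limma adjusted p = 1.39e-07). In B16F10, where both arms share a run of sample numbers, it was 705, 216, 292, 377 and 92.1 FPKM in isotype tumours and 4131, 4341 and 2948 FPKM at baseline (log2 difference -3.77, SE 0.55, adjusted p = 0.0132). RENCA, the other such model, gave 61.3, 121, 125, 284 and 229 FPKM in isotype tumours and 2011, 1499 and 1485 FPKM at baseline (log2 difference -3.51, SE 0.43, adjusted p = 0.0023). In both of these models the baseline libraries were also deeper than the isotype libraries, at the depths given above, and the part of depth was not tested.

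Its partner on the same messenger RNA, mt-Atp6, was called lower in 4T1 (-0.75), higher in MBT2 (0.55) and in neither direction in the other 9 models, where its differences ran from -1.49 (B16F10) to 0.23 (TC1). The ratio of mt-Atp8 to mt-Atp6, a ratio chosen after its values were seen, was 0.0913 to 0.264 in the 55 muDX400 libraries, 0.0423 to 0.218 in the 55 isotype libraries and 0.449 to 1.04 in the 33 baseline libraries. No 8-day library of any model reached the lowest baseline ratio.

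mt-Atp8 is the shortest messenger RNA gene here, and short nuclear genes also differed between these arms. Among nuclear genes with a single transcript, those under 250 bases had median log2 differences of -2.21 to -1.18 over the 11 models (7 to 26 genes in each), with a middle value of -1.56. Those of 250 to 400 bases ran from -1.58 to -0.37, those of 400 to 700 bases from -0.61 to -0.17, and those of 3000 bases and over from -0.19 to 0.10. Between muDX400 and isotype tumours the middle values of these classes lay within -0.07 to 0.02, but single models departed from them. Medians ran from -0.89 (MC38, 3 genes) to 0.21 (MB49) under 250 bases. They ran from -0.49 (CM3) to 0.25 (MB49) at 250 to 400 bases and from -0.36 (CM3) to 0.20 (LL2) at 400 to 700 bases. In MC38 they were -0.34 at 250 to 400 bases and -0.25 at 400 to 700 bases, and the part of length in the MC38 calls was not tested. The part of transcript length in the mt-Atp8 difference was not tested, and the length classes were chosen after the mt-Atp8 values were seen.

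**Figure D4:**
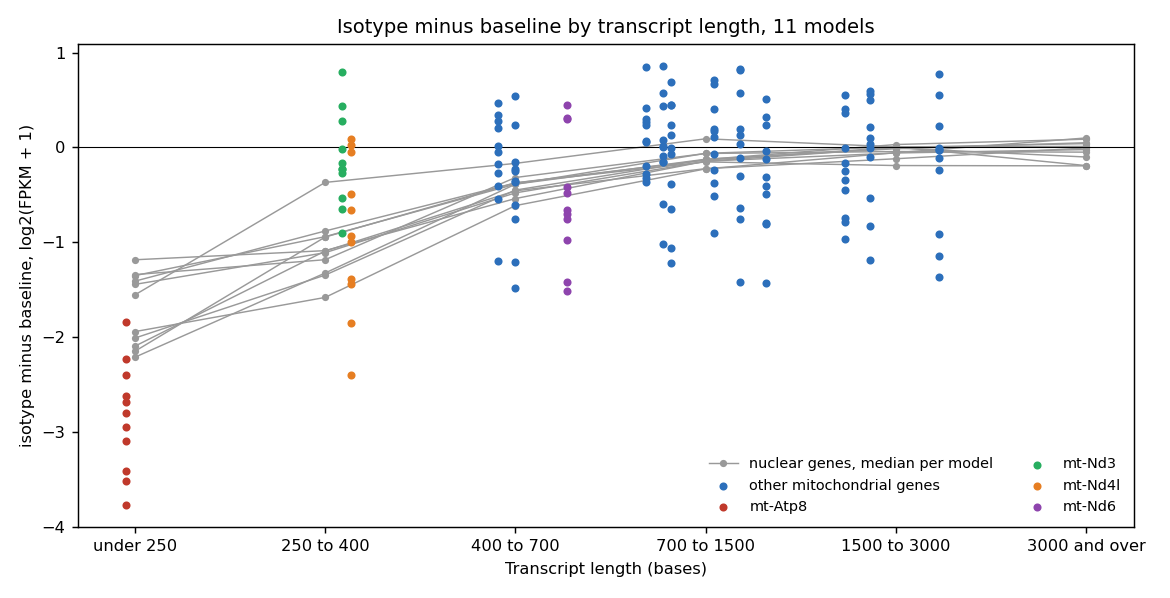
Log2 difference isotype minus baseline, on the log2(FPKM + 1) scale, of each mitochondrial gene in each of 11 models (points) against transcript length class (bases), with grey lines through the medians of single-transcript nuclear genes per model. The mt-Atp8 points lie between -3.77 and -1.84 and the nuclear medians under 250 bases between -2.21 and -1.18; mt-Nd3, mt-Nd4l and mt-Nd6 are coloured separately.

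The next shortest genes gave a mixed picture. mt-Nd4l, a small complex I subunit, was called lower in 5 models (MC38 -1.85, CM3 -1.44, RENCA -1.39, LL2 -0.99 and EMT6 -0.65) and higher in none, while in the other 6 models it lay between -2.40 (B16F10) and 0.09 (TC1). In LL2 it was 492.5, 472, 492.8, 389 and 246 FPKM in isotype tumours and 832, 754 and 841 FPKM at baseline, with no overlap. mt-Nd3, nearly as short, was called lower in 4T1 (-0.65) and higher in TC1 (0.28). With nuclear copies summed in, TC1 turned to -0.12 for mt-Nd3 (limma adjusted p = 0.128) and to -0.58 for mt-Nd4l (adjusted p = 0.000832). mt-Nd6 was called lower in RENCA (-1.42), 4T1 (-0.98), EMT6 (-0.70) and LL2 (-0.66) and higher in TC1 (0.30).

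Without a replicate block, all upward calls between isotype and baseline were in TC1, MBT2 and CT26. In TC1, where 37.0% of all genes tested were called, 11 of 15 rose and mt-Atp8 alone fell. In MBT2, with 22.4% of genes called, 8 of 15 rose and 1 fell, and in CT26, with 23.4%, 5 rose and 2 fell, mt-Rnr2 (-0.35) and mt-Atp8. mt-Nd1, mt-Co1, mt-Nd2, mt-Co3 and mt-Nd4 rose in all 3, mt-Nd1 by 0.86 in TC1, 0.57 in MBT2 and 0.43 in CT26. In TC1 mt-Nd1 was 1746, 1697, 1696, 1489.8 and 1571 FPKM in isotype tumours and 981, 839.5 and 888.5 FPKM at baseline, with no overlap. mt-Nd1 has no nuclear copy of the kind defined above.

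Markers of several other cell types were lower in TC1 isotype tumours with no overlap. Summed T-cell markers were 2.61 to 4.63 FPKM in isotype and 9.30 to 13.2 FPKM in baseline tumours, and neutrophil markers were 2.90 to 4.24 FPKM in isotype and 12.8 to 64.6 FPKM in baseline tumours. Macrophage markers were 302 to 548 FPKM in isotype and 725 to 849.6 FPKM in baseline tumours. Fibroblast markers were 1250.2 to 1440.5 FPKM in isotype and 1802 to 3210.03 FPKM in baseline tumours, and adipocyte markers were 12.1 to 39.97 FPKM in isotype and 64.8 to 248 FPKM in baseline tumours. Skeletal muscle markers overlapped, at 2.07 to 122 FPKM in isotype and 2.76 to 694 FPKM in baseline tumours. The part of these cells in the TC1 differences was not tested.

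In the other 8 models all calls without a replicate block were downward. In 4T1, with 15.3% of genes called, 6 of 15 fell, mt-Co2, mt-Atp8, mt-Atp6, mt-Nd3, mt-Nd6 and mt-Cytb. In LL2 (27.1%) 4 fell, mt-Atp8, mt-Nd4l, mt-Nd6 and mt-Co3 (-0.38). In RENCA (10%) 4 fell, mt-Atp8, mt-Nd4l, mt-Nd6 and mt-Nd2 (-1.06), and in MC38 (3.25%) 3 fell, mt-Atp8, mt-Nd4l and mt-Rnr2 (-0.75). In EMT6 (10.6%) 3 fell, mt-Atp8, mt-Nd4l and mt-Nd6. Replicate numbers met the pairing rule used here in EMT6, though no label pairs the tumours. With them as a block (2768 genes of all kinds called), mt-Atp8 (-2.51) and mt-Nd6 (-0.46) fell and mt-Nd2 (0.39) and mt-Nd4 (0.26) rose. mt-Nd4l then missed the threshold (limma adjusted p = 0.0523). In CM3 (0.374%) mt-Atp8 and mt-Nd4l fell. mt-Atp8 was the sole call in B16F10 (0.933%) and MB49 (1.89%).

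The mt-Atp8 difference kept its sign under 155 of 155 alternatives run and its adjusted p under 0.05 in 146. The exceptions were in B16F10 without any of its baseline libraries (adjusted p 0.0857 to 0.164) and in CM3 without isotype replicate 1 or 5, without any baseline library, or with a replicate block (0.06 to 0.193).

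The ratio of rRNA to messenger RNA passed in 0 of 11 models between isotype and baseline, with the smallest p in LL2 (log2 difference 0.63, exact permutation p = 0.0179, adjusted p = 0.196). The ratio of mt-Nd6 to the heavy-strand messages also passed in 0 of 11, with an adjusted p of 0.0982 in RENCA (-0.96), CT26 (-0.67), 4T1 (-0.59) and EMT6 (-0.59) by exact permutation.

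Each model was then compared with the mean of the other 10 within an arm (limma, adjusted over all genes tested, 55 muDX400, 55 isotype or 33 baseline libraries). The tumour lines differ in a large part of all genes, so counts are given with the share of all genes called in the same comparison. In B16F10, 15 of 15 were higher under muDX400 (85.2% of all genes called), 4 were higher and 2 lower under isotype (81.4%), and 13 were higher at baseline (80.8%). In CM3, 15 were higher under muDX400 (75.2%), 10 under isotype (71.9%) and 14 at baseline (69.8%), and none was lower in any arm. In LL2, 10 were higher and 2 lower under muDX400 (71.9%), 6 and 1 under isotype (63.7%), and 6 and 2 at baseline (61.3%). In CT26, 9 were higher and 1 lower under muDX400 (67.6%), 4 and 1 under isotype (54.8%), and 0 and 1 at baseline (62.2%).

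TC1 stood at the other end, with 12 lower under muDX400 (74.1%), 4 under isotype (65.5%) and 15 of 15 at baseline (65.3%), and none higher. In RENCA, 15 were lower under muDX400 (72.2%) and 11 under isotype (67.2%), while at baseline 1 was higher and 2 lower (63.2%). In EMT6, 2 were higher and 12 lower under muDX400 (67.8%), 2 and 7 under isotype (60.2%), and 1 and 11 at baseline (63.7%). In MC38, 13 were lower under muDX400 (65.3%) and 6 under isotype (56.7%), while 2 were higher at baseline (66.4%). In MBT2, 1 was higher and 4 lower under muDX400 (69.4%), 4 and 4 under isotype (62.4%), and 0 and 13 at baseline (65.5%). In 4T1, 2 were higher and 5 lower under muDX400 (62.4%), 0 and 2 under isotype (54.4%), and 5 and 0 at baseline (62.7%). In MB49, 2 were higher and 3 lower under muDX400 (66.8%), 1 and 0 under isotype (53.9%), and 1 and 1 at baseline (59.0%).

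Read against that background, more members than genes at large were called in the muDX400 arm of B16F10, CM3, LL2, EMT6, MC38, RENCA and TC1, in the isotype arm of RENCA, and in the baseline arm of B16F10, CM3, EMT6, MBT2 and TC1. In the other comparisons the members' count was at or below the background. Of those named, some lay close to it. These were LL2 and TC1 under muDX400 (12 of 15 each, beside 71.9% and 74.1%), RENCA under isotype (11 of 15, 67.2%) and B16F10 at baseline (13 of 15, 80.8%). Members also varied together across tumours, as given below, so the counts are not of independent genes. Whether these shares differ was not tested. EMT6 set its rRNAs apart from its messages. In EMT6 isotype tumours mt-Rnr2 (0.83) and mt-Rnr1 (0.39) were higher than in the other models and mt-Co3 (-0.95), mt-Nd3 (-0.92) and mt-Nd2 (-0.72) were lower, and mt-Rnr2 was higher in the muDX400 (0.80) and baseline (0.77) arms as well.

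In MBT2 a pair of complex I messages stood in an unusual proportion. mt-Nd2 and mt-Nd1, complex I subunits without such a nuclear copy, stood at a ratio of 1.39 ± 0.065 in MBT2 muDX400 tumours, 1.47 ± 0.086 in isotype tumours (SD, n = 5 each) and 1.36 ± 0.17 at baseline (n = 3). The isotype means of the other models ran from 0.388 (CM3) to 0.734 (LL2), and the nearest mean in any arm was that of RENCA at baseline, 0.993. In MBT2 isotype tumours mt-Nd2 was 0.95 higher than in the other models on the log2 scale (SE 0.16, limma adjusted p = 2.42e-06) and mt-Nd1 was 0.56 lower (SE 0.22, adjusted p = 0.0249). The ratio was chosen after its values were seen.

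The part that a nuclear copy took of the sum with its mitochondrial gene differed between models. Gm28437 held 62.0% to 82.4% of its sum with mt-Co3 in the 65 libraries of 4T1, CT26, EMT6, MBT2 and RENCA and 47.0% to 59.0% in the 78 libraries of B16F10, CM3, LL2, MB49, MC38 and TC1. The sets did not overlap in any library, and they were formed after the values were seen. Gm10925 held 11.0% to 37.5% of its sum with mt-Atp6 in the 13 B16F10 libraries and 46.4% to 67.3% in the 130 libraries of the other models. The part of this division in the model differences of mt-Co3 and mt-Atp6 was not tested. For short pairs the part moved with the arm. Gm10222 held 3.89% to 28.2% of its sum with mt-Nd4l in muDX400 and 0% to 33.04% in isotype libraries, against 28.1% to 58.6% at baseline.

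**Figure D5:**
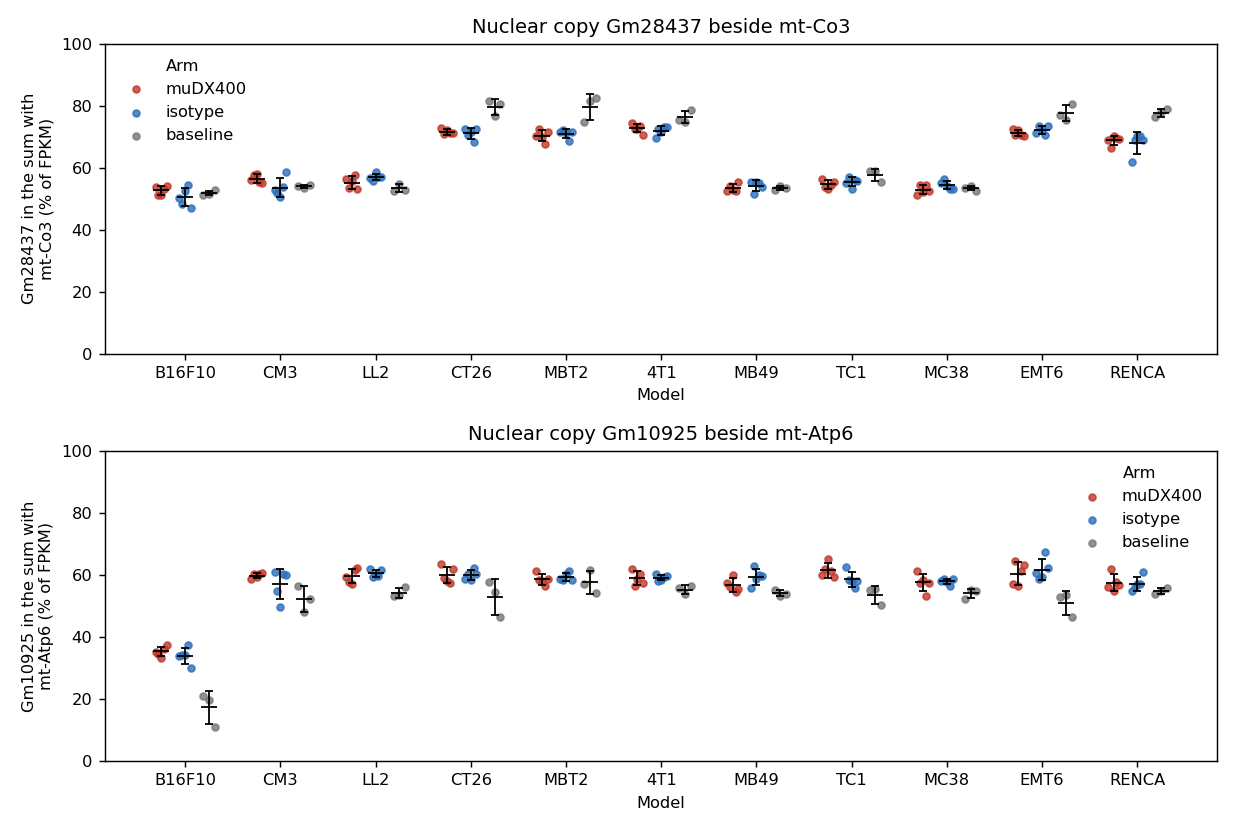
FPKM of a nuclear copy as a percentage of its sum with the mitochondrial gene, Gm28437 with mt-Co3 (top) and Gm10925 with mt-Atp6 (bottom), by model and arm (muDX400, isotype, baseline), with 1 point per tumour and the mean ± SD. In the top panel 4T1, CT26, EMT6, MBT2 and RENCA lie at 62.0% to 82.4% and the others at 47.0% to 59.0%; in the bottom panel B16F10 lies at 11.0% to 37.5%.

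CM3 isotype replicates 2 and 3 had an unusual set of transcripts. mt-Nd6 was 3612 and 6113 FPKM in them and 790 to 968 FPKM in the other 3 CM3 isotype tumours. mt-Co1 was 4405 and 1143 FPKM, against 9938 to 11951 FPKM, and its partial copy Gm29216 was 7252 and 8615 FPKM, against 75.5 to 107 FPKM. mt-Nd3 was 1889.96 and 2974 FPKM, against 515 to 655 FPKM. mt-Nd6 made 10.02% and 18.5% of the mitochondrial messenger RNA in these tumours and 4.75% at most in the other 141 libraries. Short nuclear genes were also high in both, by 1.43 and 1.303 on the log2 scale relative to long genes, and the part of this in the mt-Nd6 level was not tested. Without these tumours the CM3 share differed by 0.0055 between muDX400 and isotype on the log2 scale (0.25 with them), and the ratio of mt-Nd6 to the heavy-strand messages by -0.14 (-1.15 with them). Between isotype and baseline that ratio was -0.33 without them and 0.69 with them, while 2 of 15 genes passed either way and mt-Atp8 differed by -2.81 (limma adjusted p = 0.000604). Against the other models, 11 of 15 genes were called in the CM3 isotype arm without them and 10 with them. Milder values of this kind lay in baseline libraries. CT26 baseline replicate 3 had the next highest FPKM total, 668845. Its short nuclear genes were 1.03 above long genes on the log2 scale, and Gm29216 held 29.1% of its sum with mt-Co1. In 4T1 baseline replicates 1 and 2 these values were 0.59 and 0.55, with 14.1% and 12.5%, against -0.0065 and 1.88% in replicate 3. All of these libraries were in the main isotype against baseline fits.

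The nuclear partners were read from lists of 79 subunits of complexes I to V, 16 genes of mitochondrial DNA transcription and maintenance and 78 mitochondrial ribosomal proteins. Between muDX400 and isotype, nuclear subunits were called in MC38 and in no other model. There 13 of the 75 tested fell. Of the 12775 genes of all kinds tested, 27.3% were called, 1618 lower and 1864 higher. For the subunits the median log2 difference was -0.29, against -0.06 for all genes. The largest falls were those of Ndufs6 (-0.74), a complex I subunit, Atp5g1 (-0.52), of the ATP synthase ring, Uqcrb (-0.51), of complex III, and Sdha (-0.49), the catalytic subunit of complex II. Against the same 27.3%, 20 of 78 mitochondrial ribosomal proteins fell and 0 rose, and 5 of 16 transcription and maintenance genes fell. Among the latter were Top1mt (-0.56), a mitochondrial topoisomerase, Mterf1a (-0.52) and Tfam (-0.35), which packages mitochondrial DNA and starts its transcription. Whether the shares of these lists differ from that of all genes was not tested.

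For the mean over the 11 models, where 23.1% of all genes were called, 6 of 77 nuclear subunits fell and 1, Cox8b (0.36), rose, a smaller share than among all genes. Polrmt, the mitochondrial RNA polymerase, fell by 0.18 (SE 0.05, limma adjusted p = 0.00451). Top1mt (-0.10) and Twnk (-0.09), the mitochondrial helicase, fell too, while 0 of the 15 mitochondrial transcripts passed in that fit.

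Between isotype and baseline, nuclear subunits and mitochondrial messages were called in different directions in some models. In MBT2, where 22.4% of all genes were called, 41 of 76 nuclear subunits fell and 2 rose, while 8 of 15 mitochondrial genes rose. In TC1 (37.0%), 30 of 77 fell and 0 rose, beside 11 of 15 mitochondrial genes that rose, and in CT26 (23.4%) 20 of 76 fell and 2 rose. The TC1 count lay close to the share of all genes called. Genes of all kinds called lower and higher numbered 3536 and 1296 in TC1, 2397 and 555 in CT26, and 1502 and 1365 in MBT2. In LL2 (27.1%) 55 of 75 fell, in 4T1 (15.3%) 35 of 75 and in EMT6 (10.6%) 29 of 75. Among the largest falls were Ndufc1 (-1.99 in 4T1, -1.68 in MBT2 and -1.55 in TC1), a small complex I subunit, and Atp5k (-1.80, -1.27 and -1.44 in the same models), a small ATP synthase subunit. Short nuclear genes as a class were lower between these arms, as given above, and the part of length in these falls was not tested. In TC1 Cox6a2 (-1.18) and Cox7a1 (-0.93), muscle forms of complex IV subunits, fell too, beside the muscle markers given above.

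Across tumours, messages of the same model and arm varied together. After removing the mean of each model and arm, the pairwise Pearson correlation of log2(FPKM + 1) over all libraries was highest for mt-Nd2 with mt-Nd4 (0.92) and mt-Cytb reached 0.91 with its closest partner. mt-Rnr2 (median 0.20 with the other 14) and mt-Rnr1 (median 0.30) followed the rest least. The lowest pair was mt-Co1 with mt-Nd3, at -0.25. All these values share the scaling of a library and are a description.

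Among 12448 nuclear protein-coding genes, those whose residual level was most like the residual share were Nxt2 (r = 0.69), Armc1 (0.67), Tmx1 (0.65), Capza2 (0.63) and Cd164 (0.63). Those least like it were Ppdpf (-0.60), Actb (-0.57), H2afj (-0.56), Vps28 (-0.56) and Polg (-0.55), the mitochondrial DNA polymerase. Without the 13 B16F10 libraries Nxt2 stood at 0.57, Actb at -0.64 and Polg at -0.34. The 77 nuclear respiratory subunits had a median of -0.23, with 10 of them above 0, where all genes had a median of 0.02 and 53.7% of them lay above 0.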

How the data were processed

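The authors deposited 1 table of FPKM values for 143 libraries, made from ribosomal-RNA-depleted stranded total RNA sequenced as 50-base pairs, per the labels' protocols. For the FPKM values, the aligner, quantifier and build were not given in the sources used here. All columns were mapped to a sample by name. The members and lists were chosen with earlier results of these data known. Genes entered a test with 5 or more libraries (3 or more where baseline tumours took part) reaching an FPKM of 1. Values were taken as log2(FPKM + 1), so fold changes of low genes are understated, and tested with limma 3.58.1 (R 4.3.3) with a mean-variance trend and Benjamini-Hochberg adjustment over all genes tested. The limma script was tested on simulated data. Shares and ratios had exact 2-sided permutation tests (Python 3.11.15, numpy 2.4.6, pandas 2.3.3). Nuclear copies were found with blastn 2.17.0 between GENCODE M21 transcripts on GRCm38, from which sequences and coordinates were also read. FPKM keep no counts, so depth was estimated from the smallest steps of the values, and precision is given by the spread between tumours. The labels do not say that each tumour came from a separate animal, so p-values measure the spread between these samples. Every protein-coding and rRNA member was open to naming. Of other genes, the text names called list genes (at most the 4 largest in each direction) and the 5 genes with the highest and the 5 with the lowest correlation with the share. Ratios of 2 messages, length classes and the division of models by Gm28437 were chosen after values were seen. Alternatives were other scalings, filters and pseudocounts, summed nuclear copies, a spread shared over libraries, a replicate block, and leaving out each library or model. They were run for the isotype arm of the comparisons between models and not for its muDX400 and baseline repeats. No label pairs samples by replicate number. Replicate numbers were taken to pair samples where every same-numbered pair of residuals correlated above 0.1. This held in EMT6 between isotype and baseline (0.19, 0.31 and 0.16) and in no other model and comparison.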

Additional observations from a re-analysis of the deposited data

Results flagged for a closer look

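In groups of 5 libraries, a library was singled out where its gap to the nearest other exceeded 0.71 of the group's range. This gave 7 cases in 66 groups examined, where chance gives about 1 in 20. For the share, EMT6 muDX400 replicate 3 held 2.94% (2.85% to 2.87% in the others) and MC38 muDX400 replicate 1 held 2.90% (3.27% to 3.36%). For the log2 ratio of rRNA to messenger RNA, CT26 muDX400 replicate 3 stood at -6.46 (-6.99 to -6.90), EMT6 muDX400 replicate 3 at -5.52 (-5.43 to -5.39) and MBT2 isotype replicate 4 at -7.23 (-7.15 to -7.14). For the log2 ratio of mt-Nd6 to the heavy-strand messages, CM3 muDX400 replicate 2 stood at -5.48 (-5.31 to -5.26) and MBT2 isotype replicate 4 at -5.86 (-5.69 to -5.64). MBT2 isotype replicate 4 and EMT6 muDX400 replicate 3 were each singled out for 2 measures.

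The muDX400 effect differed between the 11 models for 13 of 15 genes by limma's interaction F test over 110 libraries. In that fit 32.4% of all genes were called. The adjusted p was 0.000739 for mt-Nd4, 0.0012 for mt-Nd2, 0.00148 for mt-Nd4l, 0.00156 for mt-Co3, 0.00227 for mt-Atp8, 0.00323 for mt-Atp6 and 0.00702 for mt-Cytb. It was 0.0102 for mt-Co2, 0.0226 for mt-Co1, 0.0235 for mt-Rnr1, 0.029 for mt-Nd5, 0.0307 for mt-Nd6 and 0.0451 for mt-Rnr2. B16F10 was the one model with all 15 differences positive, and without it 2 genes passed, with 5640 of 16020 genes of all kinds called. The test takes 1 spread per gene over all models. The share of isotype tumours had an SD of 4.197% in B16F10 and 0.11% to 1.26% in the other models. Fitted with its own spread, B16F10 had 0 of 15 called.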

How the results depend on the processing

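Counts of the 15 genes called follow, with the number of all genes called in the same fit in brackets where given. Between isotype and baseline, without a filter on low values, they were 3 in 4T1 (1957), 4 in CT26 (3435), 1 in EMT6 (1342), 2 in LL2 (4054) and 2 in MBT2 (2448). Median-ratio scaling gave 1 in CM3 (42) and 2 in RENCA. A fixed non-mitochondrial total gave 1 in CM3 (37) and 1 in EMT6 (1738), and nuclear copies summed with their genes 2 in MB49 (239). Leaving out single libraries gave 1 to 9 in 4T1, 0 to 1 in B16F10, 0 to 2 in CM3, 2 to 6 in CT26, 1 to 3 in EMT6, 2 to 5 in LL2, 1 to 2 in MB49, 4 to 9 in MBT2, 1 to 3 in MC38 and 1 to 6 in RENCA. The number of all genes called moved too. In 4T1 it was 2013 in the main fit, 750 without baseline replicate 1 and 632 without baseline replicate 2. In CM3 it was 49 in the main fit and 0 when any baseline library was left out. Counts without a bracket therefore do not separate the members from genes at large. Between muDX400 and isotype a spread shared over 110 libraries, with 16187 genes tested, gave 11 in B16F10 (70), 4 in CM3 (6662), 1 in RENCA and 0 in MC38 (4478). MC38 gave 0 without a filter (3892), 0 with median-ratio scaling (3001) and 1 with copies summed (3483). Leaving out libraries gave 0 to 7 in MBT2 (2595 beside the 7), 0 to 3 in MC38 and 0 to 1 in RENCA. Without B16F10, 2 genes passed for the mean effect, with all CM3 libraries kept, and 2 for the difference between models (5640). In the isotype arm, 4T1 gave 1 without a filter and 1 with copies summed, CT26 3 without a filter and 2 with a fixed total, LL2 4 without a filter and 4 with median-ratio scaling, MB49 0 with median-ratio scaling and 0 with copies summed, and TC1 2 with a fixed total. Leaving out libraries there gave 1 to 2 in 4T1, 2 to 5 in CT26, 4 to 6 in LL2, 0 to 1 in MB49 and 5 to 7 in MBT2.

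The isotype against baseline share ran over left-out libraries from -0.26 to -0.13 in 4T1, 0.28 to 0.33 in CT26, 0.27 to 0.69 in MBT2, -0.80 to -0.41 in MC38 and 0.42 to 0.47 in TC1. With copy-free genes alone it was -0.12 in 4T1 (exact permutation, adjusted p = 0.164). The mt-Nd6 ratio against copy-free messages passed in 4T1 (-0.71), CT26 (-0.75), EMT6 (-0.70) and TC1 (-0.31), each with an adjusted p of 0.0491 by exact permutation. Over single left-out libraries the rRNA ratio of CM3 between muDX400 and isotype ran from -0.63, which passed, to -0.37. Without the CM3 isotype libraries of highest FPKM total this ratio was -0.19 and did not pass. With copies summed, TC1 mt-Nd3 reversed to -0.12 and TC1 mt-Nd4l to -0.58.

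No label pairs the samples by replicate number. The rule for pairing was met in EMT6 between isotype and baseline and nowhere else, and whether this exceeds chance was not tested. Same-numbered residuals correlated at -0.66 to 0.65 between muDX400 and isotype (18 of 55 pairs over 0.1) and at -0.42 to 0.49 between isotype and baseline (12 of 33). With a replicate block the isotype against baseline counts, with all genes called in brackets, were 1 in 4T1 (460), 0 in CM3 (0) and 1 in CT26 (750). They were 7 in LL2 (5527), 1 in MC38 (77) and 7 in RENCA (612). MC38 gave 0 (3186) between muDX400 and isotype, and mt-Nd2 in LL2 reversed to 0.18. The cause of these changes was not tested. Among alternatives for single genes 221 lost the threshold and 62 gained it, and 270 uncalled values changed sign.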
